A study of Mus musculus with 17 samples.

Results

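Genes of late male germ cells, namely Prm1, Prm2, Tnp1, Tnp2, Odf1, Smcp, Gapdhs, Tekt1, Ldhc and Pgk2, were followed in single 2-cell mouse embryos as candidates for RNA carried in by the sperm. Members were the array rows whose annotation gave one of these symbols. Each of the 10 genes had 1 row, among 21780 rows with exactly 1 symbol for 19935 genes. The embryos were sired by wild-type 129SVE males (129S6/SvEvTac) that received daily injections of PJ34, an inhibitor of poly(ADP-ribose) polymerases, or of saline for 6 weeks, and the dams were untreated wild-type females mated naturally. The 10 PJ34 embryos came from sires MTM11 (4 embryos), MTM13 (4 embryos) and MTM14 (2 embryos). The 7 Control embryos came from sires A (1 embryo), B (3 embryos) and D (3 embryos). One label field names saline for the Control males while another calls them untreated; the treatment text names saline. RNA of each embryo was amplified and hybridized to 1 Affymetrix Mouse Gene 1.0 ST array, and the deposited values are log2 intensities after RMA, which corrects the background, normalizes the probes across arrays by quantiles and summarizes the probes of a row. The medians of the deposited arrays still ran from 6.12 to 6.23, and with each array centred on its median the difference of Prm1 between the groups was 0.18. Embryos are named by sire and number (MTM11-4 is embryo 4 of sire MTM11). Embryos of 1 sire share a father, so the p-values over embryos treat as independent some samples that may not be.

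In elongating spermatids most histones are removed from the DNA, first by the transition proteins (Tnp1 and Tnp2) and then by the protamines (Prm1 and Prm2), and transcription stops. The mRNAs of these proteins are therefore made early, in round spermatids, and stored before translation. Residual mRNA of this kind is found in mature sperm. PARP1 and PARP2 are active in spermatids during this exchange, and the study compared embryos of males in which poly(ADP-ribose) metabolism had been altered. The 2-cell embryo itself contains stored egg mRNA and the first products of its own genome.

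Many spermatid genes are switched on by the activator CREM through variants of the cyclic AMP response element. Matches to the variant TGANGTCA, where N is any base, are shown for the genes that carry it. The RefSeq promoter table (GRCm38.p6) held 12 promoters for 9 of the 10 genes, each with 250 bases before the start site and 50 after it. The letters TGANGTCA, searched on both strands, were found in 5 of these 12 promoters, those of Prm1, Tnp1, Smcp and both of Gapdhs, and in 8.83% of 32851 promoters of the same length. The full palindrome TGACGTCA was in 0 of the 12 and in 1.79% of all promoters. The letters TATAA, read on the strand of the gene, were found for Prm1, Tnp2 and Ldhc, and in 17.5% of all promoters. The 30 bases around the first match are given 5′ to 3′ on the strand of the gene, which was the minus strand for each, with the match in capitals:
Prm1, chr16:10796869-10796898, match 64 bases before the start site: ctggtcctcttTGACTTCAtaattcctagg
Tnp1, chr1:73015975-73016004, match 94 bases before the start site: gcaaaggttagTGATGTCAcaagagagctg
Gapdhs, chr7:30743757-30743786, match 94 bases before the start site: cactccctctgTGATGTCActgggcaatgt
Gapdhs, second promoter, chr7:30739459-30739488, match 70 bases before the start site: cactctctatgTGATGTCAttgatcaatgt
Smcp, chr3:92589031-92589060, match after the start site: ggagagtattaTGATGTCAtaaaagagctg
The match of Prm1 differed from that of the other 3 genes, which shared the letters TGATGTCA. A match describes the letters of the window, and binding was not measured in these embryos. Prm1, Prm2 and Tnp2 lie close together on chromosome 16.

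Most of the 10 genes read in the lower part of the array. As a guide to that range, the 1035 rows annotated as olfactory receptors were used, since these genes serve in the sensory neurons of the nose. The study described early expression of some olfactory receptor genes in embryos of males with altered poly(ADP-ribose) metabolism, to some extent with PJ34. These rows are therefore a guide and not a proven floor. Their 95th percentile was between 6.16 and 6.37 on the log2 scale over the 17 arrays. Ldhc and Prm2 were above this limit of their own array in 17 of 17 embryos. Prm1 and Tnp2 straddled it, with 8 of 17 embryos above it for each gene. Tekt1, Odf1, Gapdhs, Smcp, Tnp1 and Pgk2 were above it in 0 of 17 embryos. Rows differ in how well their probes bind, so the position of a row on the array is a description and not an order of RNA amounts, and a row within this range does not show that its mRNA was present or absent.

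The means over 17 embryos stood at the 73.4th percentile of all rows for Ldhc, the 69.6th for Prm2, the 51.7th for Prm1, the 51.3rd for Tnp2, the 42.6th for Tekt1, the 32.8th for Odf1, the 32.3rd for Gapdhs, the 30.5th for Smcp, the 27th for Tnp1 and the 15.2nd for Pgk2. The middle of this order was close: Odf1 and Gapdhs averaged 5.55 ± 0.10 and 5.52 ± 0.10 in PJ34 embryos (SD, n = 10), and 5.51 ± 0.10 and 5.51 ± 0.11 in Control embryos (SD, n = 7). The median percentile of the 10 genes was 37.7. For comparison, the 18 rows of a list of egg and 2-cell genes had a median percentile of 90.5, and 16 of them had a mean above the olfactory limit.

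**Figure D1:**
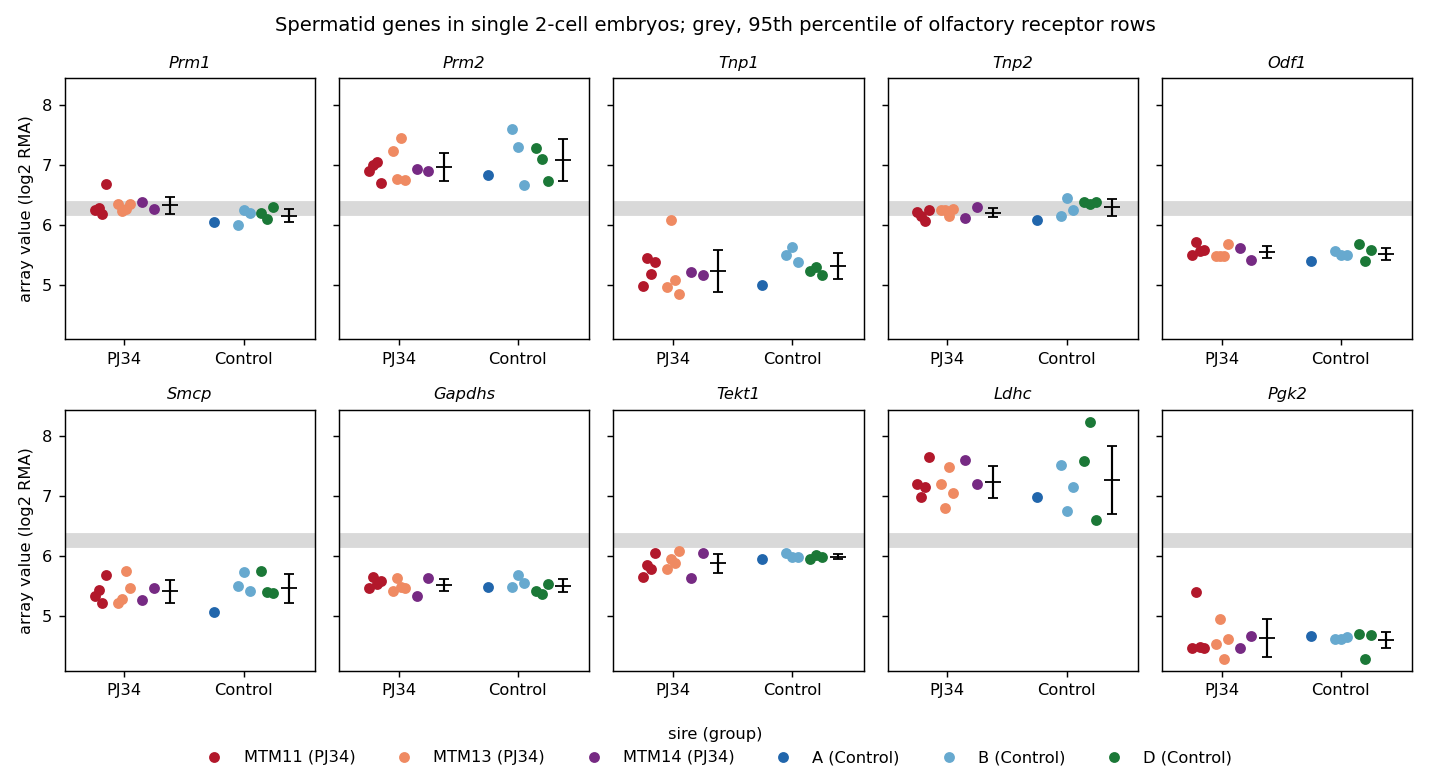
Array value (log2 RMA, vertical axis) of the 10 spermatid genes in each of 10 PJ34 embryos (left) and 7 Control embryos (right), coloured by sire, with the mean and SD as a black bar. The grey band spans the 95th percentile of the olfactory receptor rows over the arrays (6.16 to 6.37). Ldhc and Prm2 lie above the band, Prm1 and Tnp2 around it, and the other genes below it.

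Between PJ34 and Control embryos, 0 of the 10 genes passed the threshold of an adjusted p below 0.1 (limma, Benjamini-Hochberg over 21780 rows), against 0% of all rows, the lowest adjusted p of any row being 0.112. At an unadjusted p below 0.05 there was 1 of the 10, Prm1, against 5.89% of all rows. Of the 10 genes 4 had a positive difference, against 43.6% of all rows. The median difference of the 10 was -0.04 on the log2 scale, against -0.02 over all tested rows. The embryo values of the groups overlapped for all 10 genes, and 0.0138% of all rows had groups that did not overlap. These counts were close to those of the array as a whole.

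**Figure D2:**
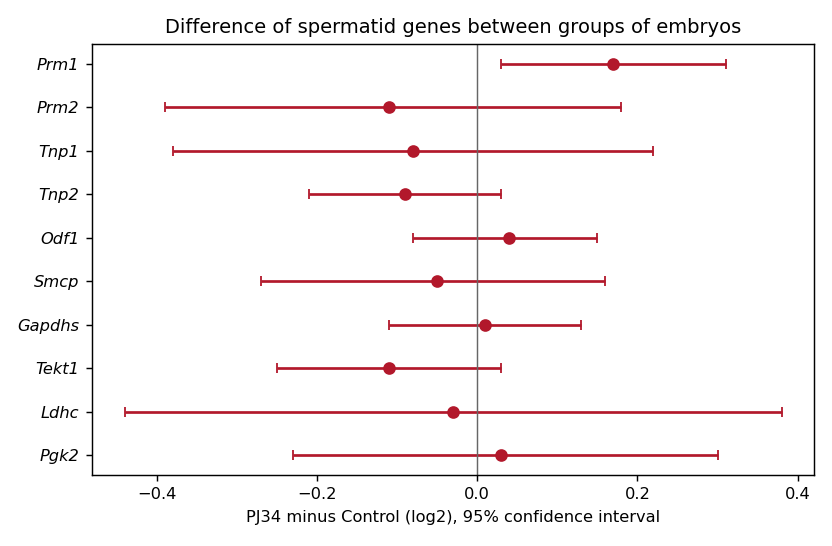
Difference between the mean of 10 PJ34 embryos and the mean of 7 Control embryos (log2, horizontal axis) for each of the 10 genes, with its 95% confidence interval from limma. The interval of Prm1 (0.03 to 0.31) lies above 0 and the other 9 cross it; the adjusted p of Prm1 was 0.843.

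Among the protamines, the proteins that pack the DNA of mature sperm, Prm1 was higher in PJ34 embryos by a small amount that did not survive the correction for all rows. It read 6.25, 6.27, 6.18 and 6.68 in embryos 1 to 4 of MTM11, 6.34, 6.22, 6.26 and 6.35 in embryos 1 to 4 of MTM13, and 6.37 and 6.26 in both of MTM14, against 6.04 in the Control embryo of A, 5.99, 6.24 and 6.20 in those of B, and 6.19, 6.09 and 6.29 in those of D. The 10 PJ34 embryos were all above the Control mean, and 4 of them were above every Control embryo. The means were 6.32 ± 0.14 in PJ34 embryos and 6.15 ± 0.11 in Control embryos (SD, n = 10 and 7), a difference of 0.17 (95% confidence interval 0.03 to 0.31), or 1.12-fold. The unadjusted p was 0.0217 and the adjusted p 0.843 in limma, which placed the row at rank 536 by p. An exact permutation test over the 19448 divisions of the embryos, two-sided and unadjusted, gave p = 0.00941. Without MTM11-4, the highest embryo, the permutation test gave p = 0.0105 and the difference was 0.13. The test treats embryos of 1 sire as independent, and the share of all rows at such a p was not computed. The members were chosen with earlier results of these data known, so these p-values describe Prm1 and are no new test of it.

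The mean of Prm1 was higher for each PJ34 sire than for any Control sire. The sire means were 6.35, 6.29 and 6.32 for MTM11, MTM13 and MTM14, against 6.04, 6.14 and 6.19 for A, B and D. Sire means of the groups did not overlap for Prm1 and Tekt1, 2 of the 10 genes, which compares with 10.2% of all rows. With 3 sires a side the exact permutation test cannot go below p = 0.1, the value it gave for both genes. The values sat at the edge of the lower range: 8 of 10 PJ34 embryos and 0 of 7 Control embryos were above the olfactory limit of their own array. That limit ran from 6.16 to 6.37 over the arrays. Control embryo D-3, at 6.29, was not above its own limit, while some PJ34 embryos with lower values were above theirs. The split is therefore not a separation of the values, and the share of all rows with such a split was not computed. Leaving out embryo B-1 gave an unadjusted p of 0.0547, and leaving out the 3 embryos of sire B left 0 of the 10 genes at an unadjusted p below 0.05.

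Prm2, the second protamine of the mouse, was above the olfactory limit in every embryo and had a difference of the opposite sign to Prm1. Its lowest, median and highest values were 6.70, 6.91 and 7.44 in PJ34 embryos and 6.66, 7.09 and 7.60 in Control embryos, so that the PJ34 range lay within the Control range. The means were 6.96 ± 0.23 in PJ34 embryos and 7.07 ± 0.35 in Control embryos, a difference of -0.11 (-0.39 to 0.18, adjusted p = 0.939 in limma). The difference was -0.02 without embryo B-1 and -0.18 without embryo B-3. MTM11-4, the embryo with the highest Prm1, had the second lowest Prm2 of the 17, at 6.70, and embryo B-1, with the lowest Prm1, had the highest Prm2, at 7.60.

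Neither transition protein passed the test, and both had lower means in PJ34 embryos. Tnp2 was below the Control mean in 9 of 10 PJ34 embryos, with a lowest, median and highest value of 6.06, 6.23 and 6.30 in PJ34 embryos, against 6.08, 6.35 and 6.44 in Control embryos. Its means were 6.20 ± 0.08 in PJ34 embryos and 6.29 ± 0.14 in Control embryos, a difference of -0.09 (-0.21 to 0.03, adjusted p = 0.882 in limma, exact permutation p = 0.106). Tnp2 and Prm1, which lie on the same chromosome and straddled the same limit, had differences of opposite sign. The difference between the genes was not tested. Tnp1 had values between 4.85 and 6.07 in PJ34 embryos and between 4.99 and 5.62 in Control embryos, with means of 5.23 ± 0.35 in PJ34 embryos and 5.31 ± 0.21 in Control embryos. Its difference was -0.08 (-0.38 to 0.22, adjusted p = 0.957 in limma). MTM13-2 stood at 6.07, and the other 9 PJ34 embryos lay at or below 5.45.

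Tekt1, Odf1 and Smcp encode parts of the sperm tail or its mitochondrial sheath. Tekt1, a tektin of the microtubule doublets of cilia and flagella, was uneven between the groups. It read 5.65, 5.86, 5.78 and 6.05 in the embryos of MTM11, 5.79, 5.96, 5.88 and 6.09 in those of MTM13, and 5.64 and 6.06 in those of MTM14, against 5.96 in A, 6.06, 5.98 and 5.98 in B, and 5.95, 6.02 and 5.99 in D. The Control embryos thus spanned 5.95 to 6.06, and 6 PJ34 embryos were below all of them and 1 above. The means were 5.88 ± 0.16 in PJ34 embryos and 5.99 ± 0.04 in Control embryos, a difference of -0.11 (-0.25 to 0.03, adjusted p = 0.872 in limma, exact permutation p = 0.0941). Every Tekt1 value was below the olfactory limit of its array.

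Odf1, a protein of the outer dense fibres, and Smcp, a cysteine-rich protein of the sperm mitochondrial capsule, had small differences between the means. Odf1 spanned 5.41 to 5.71 in PJ34 embryos and 5.39 to 5.68 in Control embryos, a difference of 0.04 (-0.08 to 0.15, adjusted p = 0.944 in limma). Smcp spanned 5.21 to 5.76 in PJ34 embryos and 5.06 to 5.75 in Control embryos, a difference of -0.05 (-0.27 to 0.16, adjusted p = 0.957 in limma). The interval of Odf1 leaves room for a smaller change than that of Smcp, whose embryos were more spread.

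Gapdhs, Ldhc and Pgk2 are the germ cell forms of glycolytic enzymes, which stand in for Gapdh, Ldha or Ldhb, and Pgk1 in the male germ line. Ldhc had the highest percentile of the 10 genes and a wide spread, with a lowest, median and highest value of 6.81, 7.20 and 7.65 in PJ34 embryos and 6.60, 7.16 and 8.24 in Control embryos. Its highest and lowest values were both Control embryos of sire D (D-2 at 8.24 and D-3 at 6.60). The means were 7.24 ± 0.27 in PJ34 embryos and 7.27 ± 0.57 in Control embryos, a difference of -0.03 (-0.44 to 0.38, adjusted p = 0.989 in limma). Gapdhs spanned 5.33 to 5.65 in PJ34 embryos and 5.37 to 5.69 in Control embryos, a difference of 0.01 (-0.11 to 0.13, adjusted p = 0.98 in limma). Both ranges of Gapdhs were narrow and nearly the same.

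Pgk2 was the dimmest member, with 1 of 17 embryos above the 25th percentile of its array. Its median was 4.50 in PJ34 embryos and 4.65 in Control embryos, and its means were 4.63 ± 0.32 in PJ34 embryos and 4.60 ± 0.14 in Control embryos, a difference of 0.03 (-0.23 to 0.30, adjusted p = 0.98 in limma). MTM11-2 stood at 5.40 and MTM13-2 at 4.95, both above every Control embryo, and the other 8 PJ34 embryos lay between 4.29 and 4.66. The medians and the means of Pgk2 thus differed in sign.

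The PJ34 sires were also compared with each other and each with the Control embryos. The adjusted p of the moderated F test over the 3 sires was 1 for each of the 10 genes, and 0.0138% of all rows passed it. None of the 10 genes passed for MTM11 against Control (0.00459% of all rows), MTM13 against Control (0% of all rows) or MTM14 against Control (0.0551% of all rows). Prm1 differed from Control by 0.20, 0.14 and 0.17 in the embryos of MTM11, MTM13 and MTM14, with unadjusted p-values of 0.0444, 0.135 and 0.165 in limma. Tekt1 differed by -0.16, -0.06 and -0.14 for the same sires.

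Because each embryo arises from 1 sperm, each PJ34 embryo was also set against the 7 Control embryos, with the spread taken from the Control embryos. None of the 10 genes passed in any of the 10 PJ34 embryos, where 0.581% of all tests did, or in any of the 7 Control embryos set against the other 6, where 0.397% did. The smallest adjusted p-values of members were those of Pgk2, Prm1 and Tekt1. Prm1 in MTM11-4 was 0.53 above the Control mean (1.45-fold, adjusted p = 0.27 in limma), and Pgk2 in MTM11-2 was 0.80 above it (1.74-fold, adjusted p = 0.183 in limma). The spread was also taken from the Control embryos and the other PJ34 embryos, without the embryo tested. Prm1 in MTM11-4 and Pgk2 in MTM11-2 then passed the adjusted threshold, so the outcome for single embryos depended on the choice of spread. Each of these differences rests on 1 embryo, and the members were chosen with earlier results of these data known. Tekt1 was 0.34 below the Control mean in MTM11-1 (adjusted p = 0.313 in limma) and 0.35 below it in MTM14-1 (adjusted p = 0.323). Tnp1 in MTM13-2 was 0.76 above the Control mean (adjusted p = 0.554 in limma). Among Control embryos, where none of the 10 genes passed, Smcp in A-2 was 0.46 below the mean of the other 6. Embryo D-2 is described for 2 genes. Its Ldhc was 1.14 above the mean of the other 6 (2.2-fold, adjusted p = 0.781 in limma) and its Pgk2 was 0.36 below it (adjusted p = 0.55).

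The highest values of the 10 genes lay in 8 different embryos, and B-2 and MTM11-2 held it for 2 genes each. In MTM11-4 Prm1 ranked first of 17 and Ldhc second, while Prm2 ranked 16th and Pgk2 14th. In MTM13-2 Tnp1 ranked first and Pgk2 second, and Ldhc 15th. The mean of the 10 genes per embryo lay between 5.79 and 6.00 in PJ34 embryos and between 5.75 and 6.02 in Control embryos.

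The rows whose values over the 17 embryos were most like those of Prm1 are given as a description; all embryos share the normalization, and the highest embryo weighs on each correlation. Of 21779 rows compared, the highest Pearson correlations were those of Rhox6 (r = 0.85), Plscr1 (0.83), Chtf8 (0.83), 1700009N14Rik (0.81) and Smpd3 (0.80). The Spearman correlations were 0.74, 0.70, 0.75, 0.59 and 0.61 in the same order. Without MTM11-4 the Pearson correlations were 0.68, 0.77, 0.69, 0.66 and 0.69. In MTM11-4 itself Rhox6 read 8.45, against 7.64 to 8.11 in the other embryos, and Chtf8 read 10.40, against 7.28 to 9.84. The other 9 members were not among these 5 rows.

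Other genes of the spermatid programme were examined in lists, and none of their rows passed the adjusted threshold. Of 10 rows for sperm chromatin genes, 7 had a positive difference (43.6% of all rows), with a median of 0.03. An unadjusted p below 0.05 was found for 1 higher row (1.96% of all rows) and 0 lower rows (3.93% of all rows). The higher row was Brdt, a bromodomain protein that binds acetylated histones in spermatids. Brdt spanned 9.50 to 10.09 in PJ34 embryos and 9.19 to 9.85 in Control embryos, with a difference of 0.27 (0.06 to 0.49, adjusted p = 0.834 in limma). Brdt was bright in both groups.

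H2bc1, the row annotated for the testis histone H2B, had the widest spread of that list with low and high embryos in both groups. It read 8.01, 9.81, 7.73 and 10.16 in the embryos of MTM11, 10.30, 9.88, 6.68 and 5.98 in those of MTM13, and 9.26 and 9.47 in those of MTM14, against 7.55 in A, 5.59, 9.37 and 6.25 in B, and 5.75, 5.65 and 10.09 in D. Low and high embryos occurred among those of 1 sire for MTM13, B and D. The means were 8.73 ± 1.53 in PJ34 embryos and 7.18 ± 1.88 in Control embryos, a difference of 1.55 (-0.10 to 3.20, adjusted p = 0.855 in limma). The H2B family has near-identical copies, and 4 further rows that list this gene with other symbols were not used, so the row is uncertain as a measure of this gene alone. H3f3a, which encodes a replacement histone H3, was the third row of the list by p, with a difference of 0.22 (adjusted p = 0.904).

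Of 23 rows for flagellar genes, 7 had a positive difference (43.6% of all rows), with a median of -0.01. At an unadjusted p below 0.05 the list held 1 higher row (1.96% of all rows) and 0 lower rows (3.93% of all rows). The higher row was Odf2, an outer dense fibre protein that somatic cells also have at the centrosome. It spanned 10.07 to 10.79 in PJ34 embryos and 9.66 to 10.56 in Control embryos, a difference of 0.34 (0.09 to 0.59, adjusted p = 0.822 in limma). Meig1 followed at -0.15 and Tekt2, another tektin, at 0.38, with adjusted p-values of 0.888 and 0.904. Only 2 of the 23 rows had a mean above the olfactory limit.

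Of 20 rows for the acrosome and egg contact, 9 had a positive difference (43.6% of all rows), with a median of -0.01. At an unadjusted p below 0.05 the list held 0 higher rows (1.96% of all rows) and 1 lower row (3.93% of all rows). The lower row was Clgn, a chaperone of sperm surface proteins, with means of 5.30 ± 0.10 for PJ34 and 5.43 ± 0.12 for Control (adjusted p = 0.843 in limma). Cylc2 and Wbp2nl came next by p. A mean above the olfactory limit was found for 1 of these 20 rows.

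Of 18 rows for germ cell metabolism and kinases, 11 had a positive difference (43.6% of all rows), with a median of 0.04. At an unadjusted p below 0.05 the list held 0 higher rows (1.96% of all rows) and 1 lower row (3.93% of all rows). It was the brighter of the rows of Hk1, the hexokinase with a sperm form, which had a lowest, median and highest value of 10.28, 11.44 and 11.67 in PJ34 embryos and 11.51, 11.68 and 11.82 in Control embryos. Its difference was -0.41 (-0.78 to -0.04, adjusted p = 0.843 in limma), while the second Hk1 row, with means of 5.40 ± 0.11 for PJ34 and 5.36 ± 0.14 for Control, differed by 0.03. A further 16 rows that list Hk1 with other symbols were not used, and the level of this gene is uncertain. Eno4 and Slc2a3 came next by p. Of 11 rows for regulators of spermatid genes, 2 had a positive difference (43.6% of all rows), with a median of -0.07. In this list 0 rows were below an unadjusted p of 0.05 (5.89% of all rows), and the first by p were Tdrd6, Tbpl1 and Ybx3.

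Somatic counterparts of the germ cell enzymes had 6 rows, and Gapdh had no row of its own. The rows for Ldha, Ldhb and Pgk1 had a median percentile of 88.2, and 6 of 6 had a positive difference (43.6% of all rows), with a median of 0.40. At an unadjusted p below 0.05 there were 4 higher rows (1.96% of all rows), 3 of which belonged to Pgk1. The 2 rows of Ldhb, the heart-type lactate dehydrogenase, did not move alike. The first spanned 10.14 to 10.55 in PJ34 embryos and 9.81 to 10.34 in Control embryos, with means of 10.38 ± 0.13 in PJ34 embryos and 10.10 ± 0.20 in Control embryos, a difference of 0.29 (0.12 to 0.46, unadjusted p = 0.00242, adjusted p = 0.814 in limma). The second differed by 0.11 (adjusted p = 0.926). Pgk1 had 3 rows, of which 2 held identical values, and differed by 0.59, 0.59 and 0.51 (adjusted p = 0.843 for each in limma), against 0.03 for Pgk2. Pgk1 has processed copies in the genome, so its rows are not independent and may share probes. Ldha differed by 0.06.

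**Figure D3:**
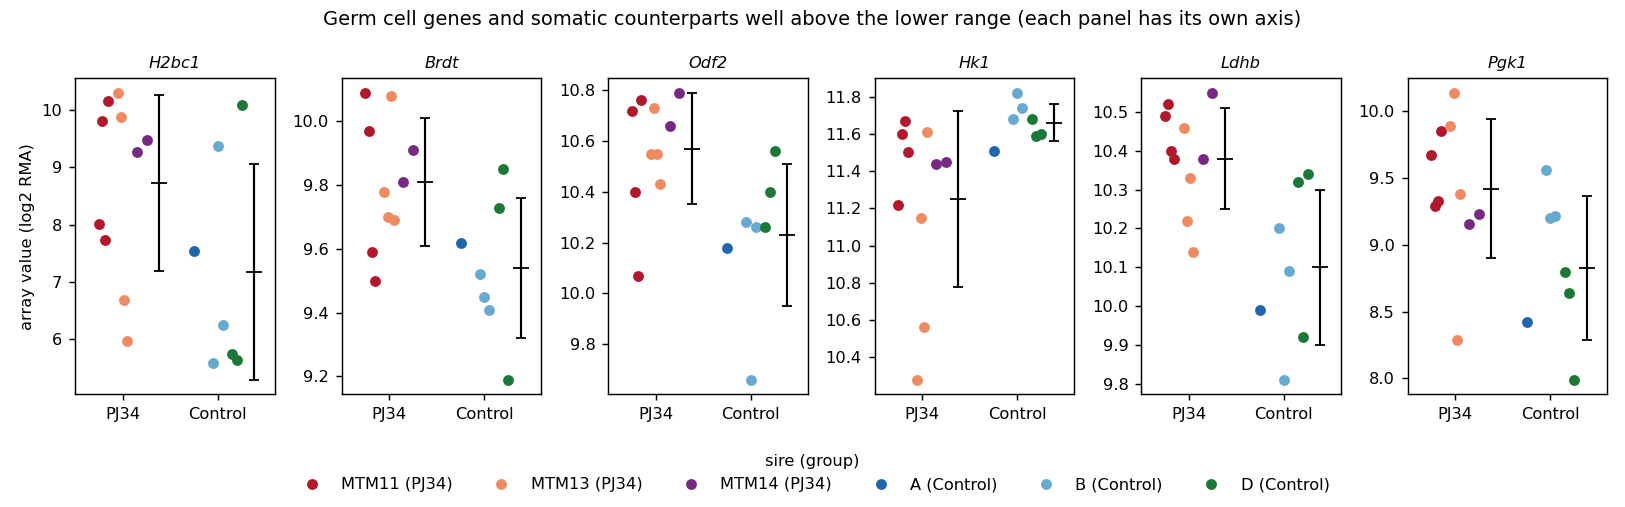
Array value (log2 RMA, vertical axis, a separate scale in each panel) of H2bc1, Brdt, Odf2, Hk1, Ldhb and Pgk1 (the row of lowest p for each) in 10 PJ34 embryos (left) and 7 Control embryos (right), coloured by sire, with mean and SD as a black bar. H2bc1 runs from 5.59 to 10.30 and holds low and high embryos in both groups; none of these rows passed the adjusted threshold.

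Material from other cells was measured with marker lists. Of 20 rows for genes of the accessory glands and epididymis, which add proteins to semen, 1 had a mean above the olfactory limit. A positive difference was found for 5 of them (43.6% of all rows) and an unadjusted p below 0.05 for 0 (5.89% of all rows). The mean of this list lay between 4.64 and 5.14 in PJ34 embryos and between 4.66 and 5.10 in Control embryos, and Svs5, Lcn9 and Svs3a came first by p, with differences of -0.11, -0.10 and 0.15. For cumulus cells 0 of 9 rows had a mean above the limit, with a list mean between 5.11 and 5.38 in PJ34 embryos and between 5.16 and 5.36 in Control embryos. For oviduct and blood it was 3 of 9 rows, Epcam, Krt8 and Slc4a1, at the 80.1st, 74.4th and 63.8th percentile of all rows. The other rows of this list were at the 48.1st percentile (Foxj1) or lower. Ovgp1, Hbb-b1 and Hba-a1 had no row of their own. The mean of the oviduct and blood list lay between 5.76 and 6.19 in PJ34 embryos and between 5.82 and 5.96 in Control embryos. At an unadjusted p below 0.05 the cumulus list held Kitl, higher by 0.16 (1.96% of all rows were higher). The oviduct and blood list held Slc4a1 at that threshold, with a difference of -0.16 (3.93% of all rows were lower). Lyz2, a gene of macrophages that was singled out after its values were seen, was above the Control mean in 10 of 10 PJ34 embryos, at 5.06 to 6.61, against 4.84 to 5.15 in Control embryos (difference 0.41, adjusted p = 0.851 in limma). Of the 9 rows of this list 7 had a positive difference (43.6% of all rows). Ptprc, S100a8 and S100a9 differed by 0.02, 0.08 and 0.03. Krt19 differed by -0.12, with 10 of 10 PJ34 embryos below the Control mean. The highest Lyz2 embryos, MTM14-1 at 6.61 and MTM13-4 at 6.30, ranked 3 or better of 17 for Prm1. The next, MTM13-3 at 5.45, ranked 8th for Prm1, and MTM11-4, the highest for Prm1, read 5.37 for Lyz2. The relation between Lyz2 and Prm1 was not tested. Of the 18 rows for egg and 2-cell genes, 1 higher row (1.96% of all rows) and 6 lower rows (3.93% of all rows) had an unadjusted p below 0.05, and the list mean was 9.44 ± 0.15 in PJ34 embryos and 9.60 ± 0.14 in Control embryos. The part of these levels in the values of the 10 genes was not tested.

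**Figure D4:**
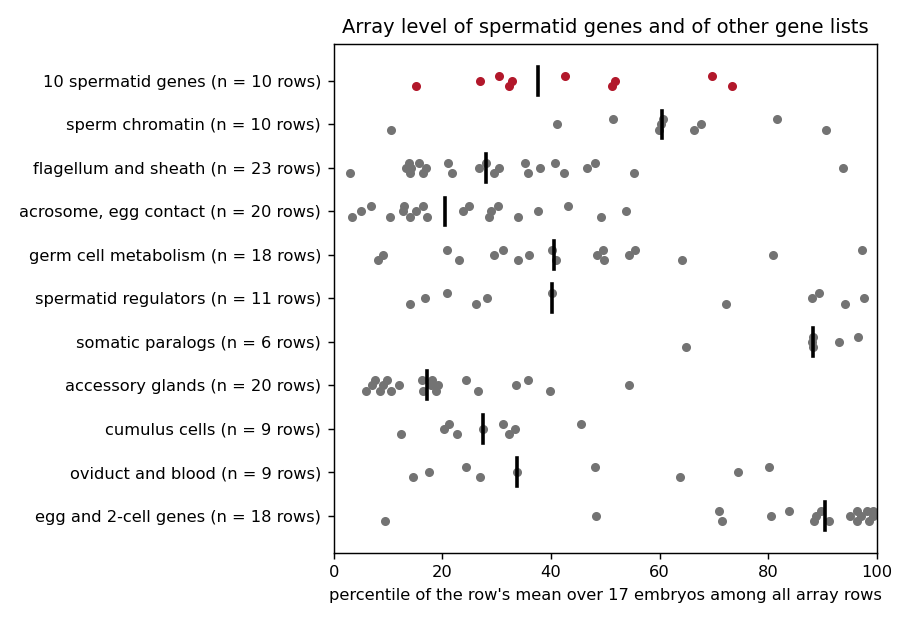
Percentile of each row's mean over the 17 embryos among all array rows (horizontal axis, 0 to 100) for the 10 spermatid genes (red) and 10 further lists (grey), 1 point per row, with the median of each list as a black line. The spermatid genes have a median of 37.7, against 90.5 for the egg and 2-cell genes and 88.2 for the somatic paralogs.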

How the data were processed

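The authors deposited log2 intensity values of 28815 rows for 17 arrays, made in Partek with RMA (background correction, quantile normalization, log2 transformation and summarization); the sources used here give neither versions nor the build of the rows. Rows were named from the platform annotation: 21780 had 1 symbol, 1605 several and 5430 none, and 21689 of the first kind matched the RefSeq gene table. Values were used as deposited. Groups were compared with limma 3.58.1 in R 4.3.3 (lmFit and eBayes, two-sided, Benjamini-Hochberg over 21780 rows, threshold 0.1 as in the methods), and each member also with an exact permutation test over embryos in Python. The fit was tested on simulated data. The number of arrays limits the precision. Members and lists were chosen with earlier results of these data known. All 10 members were named, the 5 rows most like Prm1, and the first 3 rows by p of each further list. No columns of other series were used. Alternatives were other scalings, row filters, spread models, sire terms and the removal of embryos and sires.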

Additional observations from a re-analysis of the deposited data

Results flagged for a closer look

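A few values of the 10 genes, 3 in all, stood apart from the rest of their group by the ratio of the gap to the group's range, set against Dixon's limit. Prm1 read 6.68 in the PJ34 embryo MTM11-4, with the nearest PJ34 embryo at 6.37 and a ratio of 0.616 over 10 embryos. The members were chosen with earlier results of these data known, so this flag describes the value and is no new test of it. Tnp1 read 6.07 in the PJ34 embryo MTM13-2, with the nearest PJ34 embryo at 5.45 and a ratio of 0.512. Pgk2 read 4.29 in the Control embryo D-2, with the nearest Control embryo at 4.61 and a ratio of 0.759 over 7 embryos. Such flags numbered 3 of the 20 groups of the members, against 11.8% of the 43560 groups of all tested rows. Chance alone flags about 1 in 20 groups of normal values.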

How the results depend on the processing

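The members' differences were recomputed under 32 alternatives, giving 312 values, of which 292 kept their sign and 20 reversed; none passed the adjusted threshold. The difference of Prm1 stayed between 0.13 and 0.20, with adjusted p-values from 0.678 to 0.988, and the other named rows kept their sign in 661 of 661 values. Those other rows were named for the smallest p of their list in the main comparison. Their kept signs therefore cannot show that the differences are stable. Reversals occurred where the main difference was near 0. With means of 3 sires against 3, Smcp was 0.028 and Ldhc 0.062. Without sire B, Tnp1 was 0.063 and Smcp 0.011. Without sire D, Gapdhs was -0.036, Ldhc 0.13 and Pgk2 -0.001. Without sire MTM11, Gapdhs was -0.009 and Pgk2 -0.016. Without sire MTM13, Ldhc was 0.035. Leaving out single embryos moved Gapdhs between -0.01 and 0.045, Ldhc between -0.141 and 0.133, and Pgk2 between -0.054 and 0.069. The count of all rows called, 0 in the main comparison, was 2 among rows above the olfactory limit, 2 with sire as a random block (estimated correlation -0.038; 0 with means of 3 sires against 3), 2 without sire A, 1 with rows averaged per gene, 1 without sire MTM14, and 0 to 2 when single embryos were left out. Members at an unadjusted p below 0.05, 1 in the main comparison, were 0 among rows above the olfactory limit, 0 without sire B, 2 without sire A, and 0 to 2 when single embryos were left out. Calls of members in single PJ34 embryos depended on whether the spread came from the Control embryos alone or also from the other PJ34 embryos. With the 25th percentile of the array as the limit, 7 of the 10 genes were above it in all embryos, against 2. The causes were not tested. No paired analysis was possible because embryo numbers count embryos within a sire. The level of most members in the lower range, and the number of arrays, limit what these values can show.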
